A study of Mus musculus with 6 samples.

Results

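The 32 genes described here make or regulate sterols and fatty acids, and they were taken by symbol from a table of 57180 genes measured in lymphocytes from mouse tumors. They were chosen by name, for their place in these pathways, with earlier results of these data known. They comprise 18 enzymes of the route from acetyl-CoA to cholesterol, 6 genes of its control or of sterol transfer, and 8 genes that make, elongate or desaturate fatty acids. The mice carried tumors of Hepa1-6, a mouse hepatoma cell line, and received the delivery system named TREND by tail vein. In both groups TREND carried plasmids for CasRx, a CRISPR nuclease that cuts RNA. The guide was directed at SLC43A2, an amino acid transporter, in the SLC43A2 sgRNA group (3 libraries, labelled as knockdown), and was a mock guide in the Mock sgRNA group (3 libraries, labelled as mock). The series title calls the system tumor-specific, whereas the RNA came from lymphocytes. Neither an untreated group nor the strain, sex, age or number of the mice is given in the sources used here. The labels do not say that libraries of 1 group came from separate mice, so p-values measure the spread between these libraries.

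Cholesterol is built from acetyl-CoA through mevalonate, farnesyl diphosphate, squalene and lanosterol, and the first part of the route also supplies prenyl groups, dolichol and ubiquinone. Its enzymes are controlled together by the SREBP transcription factors. SCAP escorts these factors out of the endoplasmic reticulum when sterols are scarce, and the INSIG proteins hold SCAP back when sterols are plentiful. Activated T cells are known to raise SREBP-driven sterol and fatty acid synthesis as they grow and divide.

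Values are TPM (transcript abundance as a length-adjusted share of each library), which keep no depth. Differences were tested with limma on log2(TPM + 1) over the 13759 genes that averaged at least 1 TPM, with p-values adjusted over all of them and called below 0.05. Changes are SLC43A2 sgRNA over Mock sgRNA. The targeted Slc43a2 had 3.50, 2.40 and 4.15 TPM in SLC43A2 sgRNA, against 6.68, 4.18 and 4.79 TPM in Mock sgRNA, with a log2 change of -0.52 that was not called (limma adjusted p = 0.113). It ranged from -0.66 to -0.20 over 18 alternatives and was called in 1, the fit of protein-coding genes alone (0.0291). Slc43a2 shares 922 of its 10042 exon bases with the antisense gene Gm45606. Reads of the 2 genes cannot be told apart there unless the libraries kept strand, which is uncertain. T cell markers, which check the labelled cell type, were abundant. The 11 listed summed to between 4974 and 5118 TPM in SLC43A2 sgRNA and between 4926 and 6187 TPM in Mock sgRNA, and 2 of the genes were called higher and 1 lower. Markers of other blood cells differed strongly. The sum of 10 B cell markers was 24.2 to 25.3 TPM in SLC43A2 sgRNA and 311 to 403 TPM in Mock sgRNA, with 9 of 9 tested lower. That of 12 macrophage and monocyte markers was 65.0 to 72.0 against 574 to 677 TPM, with 11 of 12 lower. That of 10 neutrophil markers was 105 to 127 against 459 to 652 TPM, with 8 of 9 tested lower, and that of 8 erythroid markers was 10.1 to 12.0 against 305 to 333 TPM, with 3 of 3 lower. Fibroblast markers (8 genes, Col1a1 at 0 throughout) summed to at most 0.290 TPM in SLC43A2 sgRNA and 0.0800 TPM in Mock sgRNA, and 8 endothelial markers to 18.6 to 28.2 against 23.3 to 25.4 TPM, with Cdh5 at most 0.0300 TPM. The Y-linked Eif2s3y averaged 1.03 TPM in SLC43A2 sgRNA and 51.4 TPM in Mock sgRNA, while the X-linked Xist averaged 11.0 and 4.31 TPM, both named after their values were seen. The part of cell makeup and of sex-linked differences in the results below was not tested, and neither can be told apart from the guide. In bulk RNA, fewer cells of a type and less RNA per cell also cannot be told apart.

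The members' expression was read beside the sequence of their promoters, because SREBP proteins act on DNA near a start site together with NF-Y and Sp1. RefSeq windows on GRCm38.p6, from 250 bases before to 50 bases after a start, were at hand for 25 of the 32 members. The letters TCACNCCA, the core of a classical sterol regulatory element, were searched on both strands and occurred in 3 members, Hmgcs1, Srebf2 and Msmo1 (12.0%, against 4.38% of 8338 other tested protein-coding genes and 4.97% of all 27025 genes with a window). CCAAT, the letters that NF-Y binds, occurred on either strand in 20 of 25 members (80.0%, against 43.6% and 41.1%). GGGCGG, an Sp1 element, occurred in 21 of 25 (84.0%, against 69.1% and 38.2%). TCACNCCA would run into a CCAAT if AT followed it, which was so in none of the 3 matches, and CCAAT can share its first letters with the reverse complement of GGGCGG. These letters were settled on after a longer form of the first had been counted. The stretches below lie upstream of the RefSeq start and read 5′ to 3′, with matches to TCACNCCA and to CCAAT (or its reverse complement ATTGG) in capitals. In the GENCODE M21 annotation, those of Msmo1, Idi1 and Cyp51 fall inside the span of the gene rather than upstream of it. The first 3 are shown for a match to TCACNCCA lying close to a CCAAT.
Hmgcs1, chr13:119690171-119690350, plus strand: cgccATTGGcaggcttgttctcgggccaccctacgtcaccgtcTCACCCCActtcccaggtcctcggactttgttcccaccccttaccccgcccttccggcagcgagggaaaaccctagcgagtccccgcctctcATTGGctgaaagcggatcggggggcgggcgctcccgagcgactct
Srebf2, chr15:82147089-82147180, plus strand: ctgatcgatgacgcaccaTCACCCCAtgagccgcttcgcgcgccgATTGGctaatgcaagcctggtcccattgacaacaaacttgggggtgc
Msmo1, chr8:64733729-64733758, minus strand: ttcTCACTCCAtccgcgcagCCAATgactg
The next 3 come from genes called higher that hold CCAAT but no TCACNCCA in the window, and the last from Mvk, which holds the most CCAAT matches of the 7 genes shown and was not called.
Idi1, chr13:8885561-8885590, plus strand: ATTGGcgagcccgggcatggtccaaggtgc
Cyp51, chr5:4104713-4104742, minus strand: ctgccgctgtccgccaCCAATctggtcctg
Mvd, chr8:122443423-122443492, minus strand: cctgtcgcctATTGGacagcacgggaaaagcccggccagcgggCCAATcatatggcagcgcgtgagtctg
Mvk, chr5:114444089-114444268, plus strand: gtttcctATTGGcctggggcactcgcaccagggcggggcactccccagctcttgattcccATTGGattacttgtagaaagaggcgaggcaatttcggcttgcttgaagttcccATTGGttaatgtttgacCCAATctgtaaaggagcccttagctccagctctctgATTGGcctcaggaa
The Mvk window has 5 matches to CCAAT, that of Hmgcs1 has 4, and that of Idi1 has 2. A match is only a run of letters, and a window without one says nothing about whether the factor binds. Neither binding nor a link of these letters to expression was tested.

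Of the 18 sterol enzymes, 12 were called higher in SLC43A2 sgRNA and 6 were not called. Of the 32 members, 31 passed the expression filter and 17 of them (54.8%) were called higher, where 22.8% of all tested genes and 28.1% of tested protein-coding genes were. A single member, Scd1, was called lower, where 22.2% of all tested genes and 19.3% of protein-coding genes were, and it passed the filter only through the Mock sgRNA libraries, where it is high. The 17 stood 1.58- to 3.71-fold higher in mean TPM, and another 13 were tested without a call. In 21 of 31 members (67.7%) all 3 SLC43A2 sgRNA libraries lay above all 3 Mock sgRNA libraries, against 28.7% of all tested genes. Among members with a promoter window, CCAAT occurred in 11 of 12 called higher and in 9 of 12 without a call. The median log2 change was 0.83 over the members tested, 0.03 over all tested genes and 0.16 over the 10463 protein-coding genes tested. Fads2, a fatty acid desaturase gene, averaged 0.410 TPM in SLC43A2 sgRNA and 0.413 TPM in Mock sgRNA and was not tested.

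**Figure D1:**
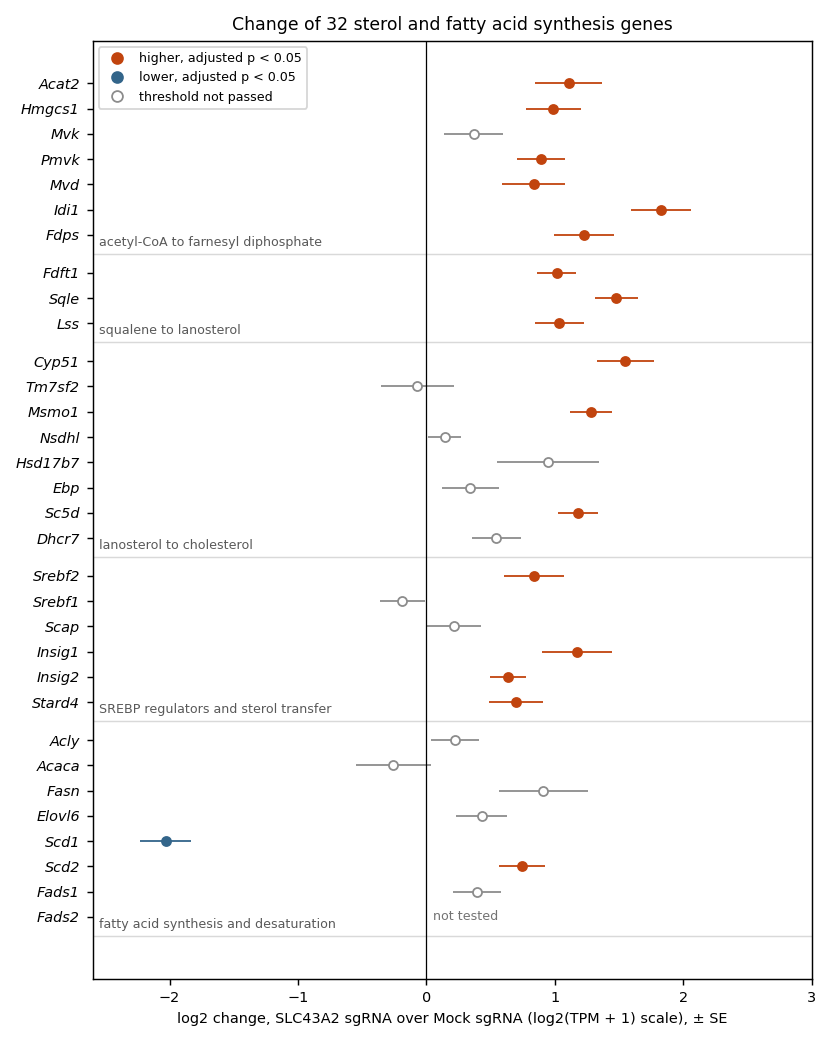
Log2 change of each member (horizontal axis, SLC43A2 sgRNA over Mock sgRNA on the log2(TPM + 1) scale) with its SE, grouped by role down the page. Filled points passed an adjusted p of 0.05; Idi1 stands highest at 1.82 and Scd1 lowest at -2.03.

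In the first part of the route, from acetyl-CoA to farnesyl diphosphate, 6 of 7 enzyme genes were called higher, against 28.1% of protein-coding genes. The TPM of all 7 summed to between 273 and 346 in SLC43A2 sgRNA and between 112 and 178 in Mock sgRNA. Idi1 (chromosome 13, 8885501 to 8892451, plus strand; gene coordinates are GENCODE M21 on GRCm38) encodes isopentenyl diphosphate isomerase and had the largest rise of all members. It had 79.6, 50.1 and 79.4 TPM in SLC43A2 sgRNA, against 15.8, 17.3 and 23.3 TPM in Mock sgRNA. The lowest SLC43A2 sgRNA library was thus above the highest Mock sgRNA library, and the log2 change was 1.82 (SE 0.23, limma adjusted p = 0.0014). Fdps, which joins isoprene units into farnesyl diphosphate and had the highest TPM of the members, had 159, 138 and 155 TPM in SLC43A2 sgRNA, against 47.2, 60.6 and 90.2 TPM in Mock sgRNA. The groups did not overlap, though the Mock sgRNA libraries spread widely, and the log2 change was 1.23 (SE 0.23, limma adjusted p = 0.0060). An annotated protein-coding gene on the same strand, Gm43738, holds 1124 of the 4208 exon bases of Fdps (26.7%), and how the authors' counting treated such bases is not given in the sources used here.

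Hmgcs1 encodes the cytosolic HMG-CoA synthase. It had 23.3, 14.5 and 21.1 TPM in SLC43A2 sgRNA, against 10.0, 7.64 and 10.3 TPM in Mock sgRNA. The libraries did not overlap, and the log2 change was 0.99 (SE 0.21, limma adjusted p = 0.0098). Acat2, the cytosolic thiolase that begins the route, had 25.2, 19.1 and 22.6 TPM in SLC43A2 sgRNA, against 7.47, 8.17 and 15.0 TPM in Mock sgRNA (log2 change 1.11, SE 0.26, limma adjusted p = 0.0138). Its groups were also apart, but its transcript resembles other genes. Acat3, a near copy named after its values were seen, matches 1477 of 2250 transcript bases of Acat2 (65.6%) at an identity of up to 97.7%, and averaged 0.273 TPM in SLC43A2 sgRNA and 0.430 TPM in Mock sgRNA. The chaperonin gene Tcp1, likewise named after its values were seen, matches 445 bases (19.8%) and averaged 319 and 158 TPM in these groups. Reads from such stretches may have been divided between the genes, so the value of Acat2 is uncertain.

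Of the kinases and the decarboxylase of the mevalonate steps, 2 of 3 were called higher. These are too few genes to set against the 28.1% of protein-coding genes called higher. Pmvk, phosphomevalonate kinase, had 37.2, 35.4 and 37.7 TPM in SLC43A2 sgRNA, against 16.7, 16.8 and 25.6 TPM in Mock sgRNA, with no overlap and a log2 change of 0.89 (SE 0.19, limma adjusted p = 0.0087). Mvd, the diphosphate decarboxylase, had 13.0, 9.63 and 13.5 TPM in SLC43A2 sgRNA, against 6.99, 4.19 and 8.13 TPM in Mock sgRNA. Its groups were apart and it was called with a log2 change of 0.83 (SE 0.25, limma adjusted p = 0.0313), but the call was lost without SLC43A2 sgRNA replicate 1 or 3 (limma adjusted p = 0.0943 and 0.102) and without Mock sgRNA replicate 1 or 2 (0.0590 and 0.0601), and also with no filter on low values (0.0715). Mvk, mevalonate kinase, had 8.64, 6.15 and 8.25 TPM in SLC43A2 sgRNA, against 7.41, 4.06 and 5.98 TPM in Mock sgRNA. Its groups overlapped and its log2 change of 0.37 did not pass (SE 0.23, limma adjusted p = 0.234), except at 0.59 with quantile normalization (0.0376). Without Mock sgRNA replicate 2 it was 0.17 (0.543). Whether Mvk differs from its neighbours in the route was not tested.

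**Figure D2:**
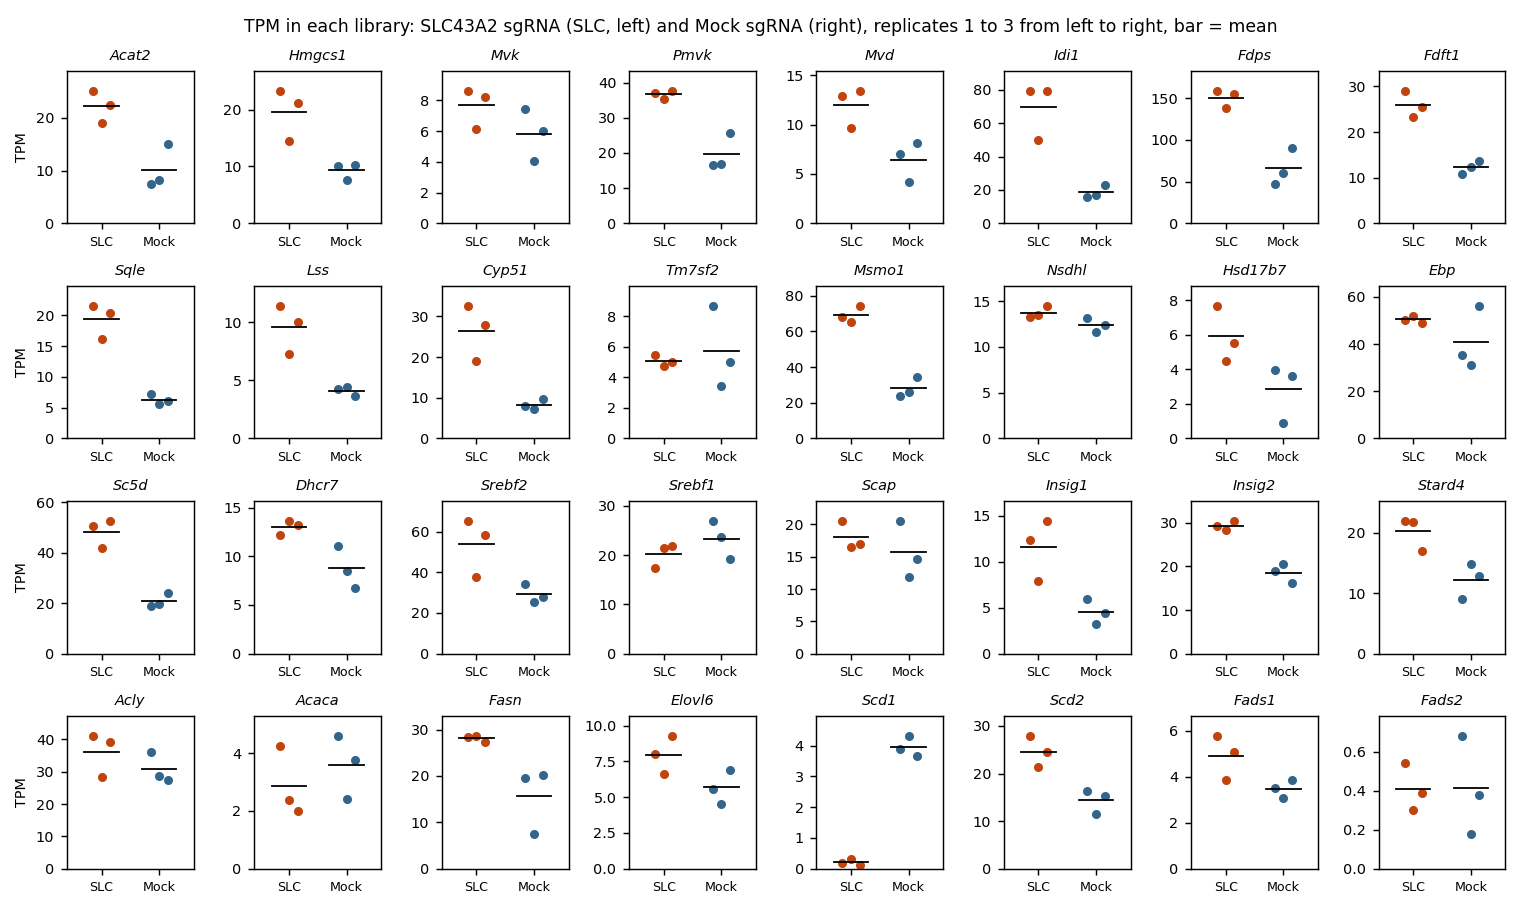
TPM of each of the 32 members in every library (vertical axes start at 0, with SLC43A2 sgRNA left of Mock sgRNA), points being replicates 1 to 3 and bars the group means. Groups are apart in Idi1 (50.1 to 79.6 against 15.8 to 23.3 TPM), while those of Ebp overlap (49.0 to 52.1 against 31.3 to 56.2 TPM).

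All 3 enzymes that take farnesyl diphosphate to lanosterol were called higher, against 28.1% of protein-coding genes. With only 3 genes, no more is read from this count. Their TPM summed to between 46.7 and 62.1 in SLC43A2 sgRNA and between 22.3 and 23.5 in Mock sgRNA. Sqle, squalene epoxidase, had 21.6, 16.2 and 20.5 TPM in SLC43A2 sgRNA, against 7.24, 5.58 and 6.15 TPM in Mock sgRNA. The groups were far apart, and the log2 change was 1.48 (SE 0.17, limma adjusted p = 8.8e-04). Fdft1, squalene synthase, had 29.1, 23.2 and 25.5 TPM in SLC43A2 sgRNA, against 10.8, 12.4 and 13.7 TPM in Mock sgRNA (log2 change 1.01, SE 0.15, limma adjusted p = 0.0025). Its groups were apart as well. Fdft1 shares 774 of its 4227 exon bases (18.3%) with the protease gene Ctsb on the opposite strand. The kit named in the labels' protocols does not mark strand, though that text may not describe these libraries. Ctsb, named after its values were seen, was itself called higher, averaging 229 TPM in SLC43A2 sgRNA and 146 TPM in Mock sgRNA (limma adjusted p = 0.0240). Without strand, reads of the stretch shared by Fdft1 and Ctsb cannot be told apart. Lss, lanosterol synthase, had 11.4, 7.29 and 10.0 TPM in SLC43A2 sgRNA, against 4.26, 4.40 and 3.64 TPM in Mock sgRNA. Its groups did not overlap (log2 change 1.03, SE 0.19, limma adjusted p = 0.0057).

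From lanosterol to cholesterol, 3 of 8 enzyme genes were called higher and none lower. Over so few genes this count cannot be set apart from the 28.1% of protein-coding genes called higher. Cyp51, the lanosterol demethylase, had 32.6, 19.0 and 27.9 TPM in SLC43A2 sgRNA, against 7.95, 7.18 and 9.65 TPM in Mock sgRNA. Its groups were well apart, with a log2 change of 1.55 (SE 0.22, limma adjusted p = 0.0021), second to Idi1 among the members. Msmo1, the methylsterol monooxygenase, had 67.9, 65.0 and 74.4 TPM in SLC43A2 sgRNA, against 23.9, 26.0 and 34.5 TPM in Mock sgRNA. There was no overlap, and the log2 change was 1.28 (SE 0.17, limma adjusted p = 0.0015). A short stretch of its longest annotated transcript closely matches transcripts of many other genes. Some of these had far more TPM than Msmo1 and others less. Among the former, Gm47551 averaged 3050 TPM and Churc1 554 TPM over the 6 libraries, against 48.6 TPM for Msmo1. Reads from that stretch may have been divided between the genes, and the part of this in the value of Msmo1 was not tested. Sc5d, a sterol desaturase, had 50.6, 42.0 and 52.7 TPM in SLC43A2 sgRNA, against 18.8, 19.8 and 23.9 TPM in Mock sgRNA, again without overlap (log2 change 1.18, SE 0.15, limma adjusted p = 0.0015).

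The other 5 enzymes of this stretch did not pass the threshold. In 3 of them every SLC43A2 sgRNA library exceeded every Mock sgRNA library, as was so in 28.7% of all tested genes. Over so few genes this count cannot be set apart from that share. Dhcr7, a reductase of the last steps, had 12.2, 13.6 and 13.2 TPM in SLC43A2 sgRNA, against 11.1, 8.50 and 6.75 TPM in Mock sgRNA (log2 change 0.54, limma adjusted p = 0.0522). It passed under 6 of 19 alternatives, among them without Mock sgRNA replicate 1 (0.0259) and median-of-ratios scaling (0.0299), and stood at 0.28 with trends of transcript length and GC removed (0.298). Hsd17b7, a sterol ketoreductase, had 7.68, 4.49 and 5.53 TPM in SLC43A2 sgRNA, against 3.98, 0.900 and 3.62 TPM in Mock sgRNA (log2 change 0.94, limma adjusted p = 0.0909). The SE was 0.40. Without Mock sgRNA replicate 2, the lowest library, the change was 0.50 (0.147), and the gene passed under 4 of 18 alternatives, among them quantile normalization (0.0307) and a replicate block (0.0347). Nsdhl, the sterol decarboxylating dehydrogenase, had 13.3, 13.5 and 14.5 TPM in SLC43A2 sgRNA, against 13.2, 11.6 and 12.4 TPM in Mock sgRNA. The groups were barely apart (log2 change 0.14, SE 0.13, limma adjusted p = 0.392, or -0.045 with length and GC trends removed). Ebp, the sterol isomerase, had 50.2, 52.1 and 49.0 TPM in SLC43A2 sgRNA, against 35.3, 31.3 and 56.2 TPM in Mock sgRNA. Mock sgRNA replicate 3 alone lay above the SLC43A2 sgRNA libraries (log2 change 0.34, limma adjusted p = 0.246), and without it Ebp stood at 0.59 and passed (0.0143). Without Mock sgRNA replicate 2 it stood at 0.18 (0.542), and it also passed with libraries scaled to their summed T cell markers (0.0499). Tm7sf2, a sterol reductase, had 5.44, 4.73 and 5.0 TPM in SLC43A2 sgRNA, against 8.69, 3.42 and 4.99 TPM in Mock sgRNA. Its groups overlapped, and its log2 change was -0.07, or 0.20 with quantile normalization and 0.23 without Mock sgRNA replicate 1, with no call in any (limma adjusted p = 0.855, 0.552 and 0.400). Tm7sf2 shares 532 of its 4403 exon bases (12.1%) with Vps51 on the same strand, a gene of vesicle traffic that averaged 38.3 TPM in SLC43A2 sgRNA and 50.8 TPM in Mock sgRNA. Nsdhl and Ebp are the 2 X-linked members. Of 308 X-linked protein-coding genes tested, 26.6% were called higher and 17.2% lower.

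Taking the 18 sterol enzymes as a whole, 12 were called higher and 0 lower by limma, with a median log2 change of 1.00. At an unadjusted p under 0.05 also, 0 of them were lower. Their summed TPM was 534 to 648 in SLC43A2 sgRNA and 250 to 354 in Mock sgRNA, 2.11-fold higher by the means. Among the 17 members called higher, SLC43A2 sgRNA replicate 2 was the lowest of its group in 16 (94.1%). The same library was lowest in 67.7% of all 3139 genes called higher. Mock sgRNA replicate 3 was the highest of its group in 10 of the 17 (58.8%), against 66.1% of all genes called higher.

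**Figure D3:**
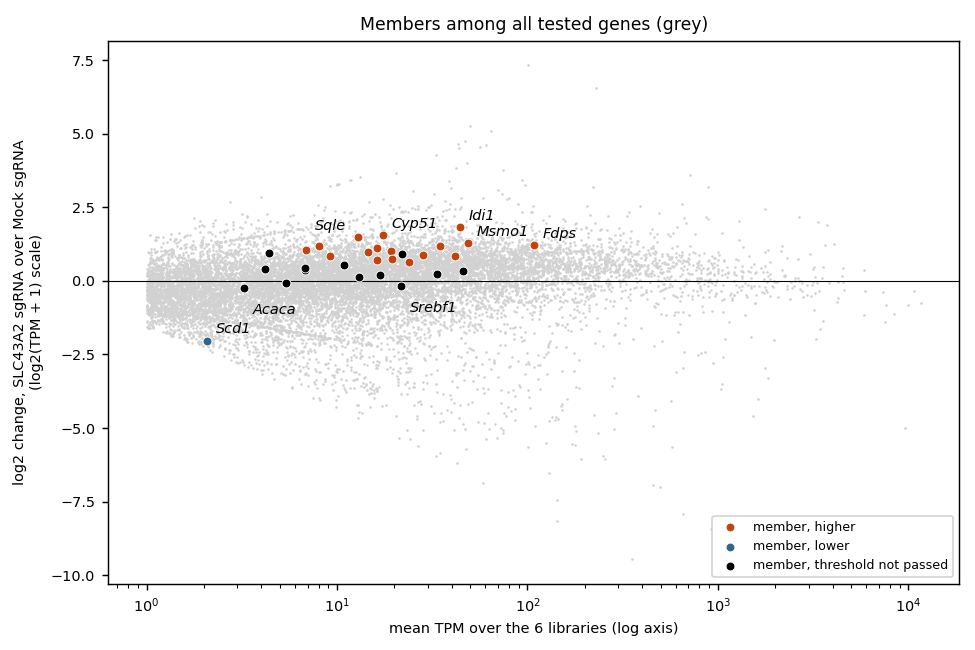
Log2 change (vertical axis, SLC43A2 sgRNA over Mock sgRNA) against the mean TPM over the 6 libraries (log axis) for the 13759 tested genes in grey, with the 31 tested members on top. Members called higher span mean TPM from 6.83 (Lss) to 108 (Fdps), and Scd1 lies at 2.08 TPM.

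Of the 6 genes of control and sterol transfer, 4 were called higher. Over so few genes this count cannot be set apart from the 28.1% of protein-coding genes called higher. Srebf2 encodes the SREBP that chiefly drives sterol synthesis, and had 65.2, 37.8 and 58.5 TPM in SLC43A2 sgRNA, against 34.4, 25.5 and 27.6 TPM in Mock sgRNA. The groups were apart, by a narrow margin between SLC43A2 sgRNA replicate 2 and Mock sgRNA replicate 1, and the log2 change was 0.84 (SE 0.23, limma adjusted p = 0.0236). The call was lost without SLC43A2 sgRNA replicate 1 or 3 (limma adjusted p = 0.0780 and 0.0789) and without Mock sgRNA replicate 2 or 3 (0.0681 and 0.0593), and with no filter on low values (0.0528). Srebf1 encodes the SREBP forms that chiefly drive fatty acid synthesis, and had 17.4, 21.5 and 21.9 TPM in SLC43A2 sgRNA, against 26.9, 23.8 and 19.2 TPM in Mock sgRNA. Its groups overlapped, and the log2 change of -0.19 did not pass (SE 0.17, limma adjusted p = 0.404). Within each library the ratio of Srebf2 to Srebf1 was 3.76, 1.76 and 2.67 in SLC43A2 sgRNA, against 1.28, 1.07 and 1.44 in Mock sgRNA. All 3 ratios in SLC43A2 sgRNA were above those in Mock sgRNA. The values of Srebf1 come from a gene that shares 109 of its 5634 exon bases (1.93%) with Rai1 on the opposite strand.

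Insig1, a sterol-sensing anchor of SCAP that is itself an SREBP target, had 12.4, 7.84 and 14.4 TPM in SLC43A2 sgRNA, against 5.92, 3.25 and 4.41 TPM in Mock sgRNA. The groups did not overlap and the log2 change was 1.17 (SE 0.27, limma adjusted p = 0.0125). Its paralog Insig2 had 29.2, 28.4 and 30.5 TPM in SLC43A2 sgRNA, against 19.0, 20.7 and 16.1 TPM in Mock sgRNA, also apart (log2 change 0.64, SE 0.14, limma adjusted p = 0.0100). With length and GC trends removed the change of Insig2 was 0.39 and was not called (0.0697). The ratio of Insig1 to Insig2 was 0.425, 0.276 and 0.474 in SLC43A2 sgRNA, against 0.311, 0.157 and 0.274 in Mock sgRNA, and here the groups overlapped. Insig2 had more TPM than Insig1 in all 6 libraries. Scap averaged 18.0 ± 2.16 TPM in SLC43A2 sgRNA and 15.7 ± 4.44 TPM in Mock sgRNA (SD, n = 3 each) and did not pass (log2 change 0.21, limma adjusted p = 0.438). Stard4, a carrier of cholesterol between membranes, had 22.0, 21.8 and 17.0 TPM in SLC43A2 sgRNA, against 8.99, 14.9 and 12.9 TPM in Mock sgRNA. It was called with groups apart (log2 change 0.70, SE 0.21, limma adjusted p = 0.0329), and lost the call without SLC43A2 sgRNA replicate 1 or 2 (limma adjusted p = 0.102 and 0.0819) and without Mock sgRNA replicate 1 or 3 (0.0792 and 0.0577). It also lost the call with no filter on low values (0.0670), quantile normalization (0.0636), or receptor, mitochondrial and hemoglobin genes removed (0.0530).

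**Figure D4:**
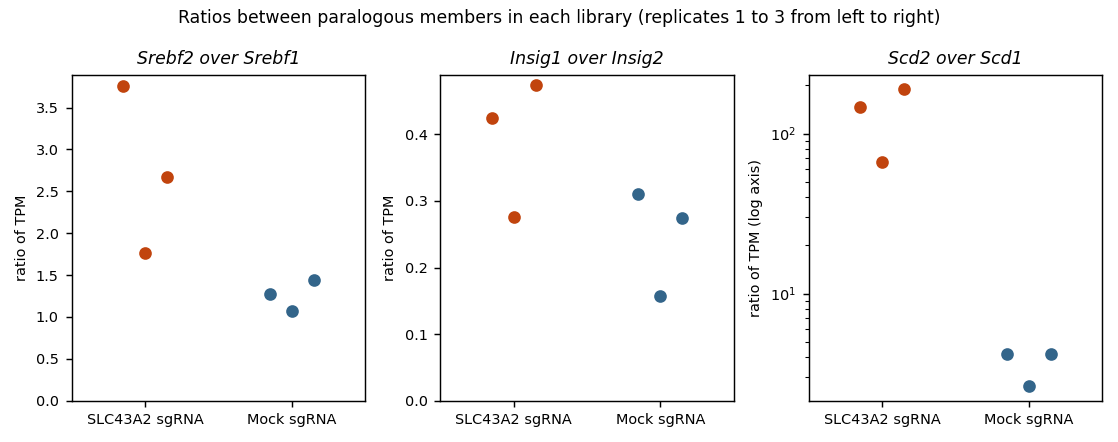
Ratio of TPM between paired members in each library, SLC43A2 sgRNA left of Mock sgRNA, with a log axis for Scd2 over Scd1. The groups are apart for Srebf2 over Srebf1 (1.76 to 3.76 against 1.07 to 1.44) and overlap for Insig1 over Insig2. Scd2 over Scd1 is 66.7 to 189 against 2.65 to 4.21. It is given as a description, because Scd1 is close to 0 in SLC43A2 sgRNA (0.130 to 0.320 TPM).

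Of the 7 fatty acid genes tested, 1 was called higher and 5 were not called, which over so few genes cannot be set apart from the 28.1% of protein-coding genes called higher. Scd1 was called lower, with the limit given above. Their median log2 change was 0.39, and 0.64 with quantile normalization, 0.59 with a mean of at least 5 TPM and 0.22 with length and GC trends removed. The paralogs Scd1 and Scd2 encode stearoyl-CoA desaturases, which place a double bond in saturated fatty acids, and lie near each other on chromosome 19 (44394455 to 44407879 on the minus strand and 44293674 to 44306864 on the plus strand). Scd1 had 0.190, 0.320 and 0.130 TPM in SLC43A2 sgRNA, against 3.90, 4.31 and 3.65 TPM in Mock sgRNA. It was close to 0 in every SLC43A2 sgRNA library and low in Mock sgRNA, so it passed the filter through the Mock sgRNA libraries alone. The log2 change of -2.03 (SE 0.20, limma adjusted p = 4.7e-04) is given as a description. With no filter on low values the adjusted p was 0.0022, and with a pseudocount of 0.1 the change was -3.74. Scd2 had 27.9, 21.3 and 24.6 TPM in SLC43A2 sgRNA, against 16.4, 11.4 and 15.3 TPM in Mock sgRNA, with groups apart and a log2 change of 0.74 (SE 0.18, limma adjusted p = 0.0154). The call of Scd2 was lost without SLC43A2 sgRNA replicate 1 or 3 (limma adjusted p = 0.0592 and 0.0536). Scd1 matches 623 of the 5455 transcript bases of Scd2 (11.4%) at an identity of up to 95.5%. In each library Scd2 exceeded Scd1 by 147-, 66.7- and 189-fold in SLC43A2 sgRNA, against 4.21-, 2.65- and 4.20-fold in Mock sgRNA. The sum of both was 21.7 to 28.1 TPM in SLC43A2 sgRNA and 15.8 to 20.3 TPM in Mock sgRNA, so the difference in Scd1 was small in TPM beside the level of Scd2. Adipocyte markers, of a cell type rich in Scd1, summed to 0.750 to 1.23 TPM over 7 genes in SLC43A2 sgRNA and 1.99 to 3.53 TPM in Mock sgRNA, with the defining Adipoq at 0 in SLC43A2 sgRNA and at most 0.810 TPM in Mock sgRNA. The hepatocyte and hepatoma markers summed to 3.91 to 6.71 TPM over 14 genes in SLC43A2 sgRNA and 6.24 to 8.55 TPM in Mock sgRNA, with Apoa1 at most 0.0700 TPM and Afp at 2.62 to 4.48 against 4.39 to 7.31 TPM. Of the adipocyte markers only 1 was tested, and it was called lower. Macrophage, B cell, neutrophil and erythroid markers, given above, also moved in the same direction as Scd1. The part of each of these cell types in the difference of Scd1 was not tested.

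Fasn, fatty acid synthase, had 28.3, 28.6 and 27.4 TPM in SLC43A2 sgRNA, against 19.6, 7.54 and 20.2 TPM in Mock sgRNA. All 3 SLC43A2 sgRNA libraries lay higher, but Mock sgRNA replicate 2 stood far below the other Mock sgRNA libraries and the log2 change of 0.91 did not pass (SE 0.35, limma adjusted p = 0.0694). Without that library the change was 0.48 and passed (0.0348), as it did under 5 other alternatives, among them median-of-ratios scaling (0.0388). Acly, which makes cytosolic acetyl-CoA from citrate, averaged 36.2 ± 6.79 TPM in SLC43A2 sgRNA and 30.8 ± 4.75 TPM in Mock sgRNA (SD, n = 3 each), and Acaca, acetyl-CoA carboxylase, averaged 2.87 ± 1.21 and 3.59 ± 1.11 TPM in these groups. Both overlapped, with log2 changes of 0.22 and -0.26 (0.10 for Acaca with quantile normalization) and no call (limma adjusted p = 0.362 and 0.491). Elovl6, an elongase, averaged 7.97 ± 1.34 TPM in SLC43A2 sgRNA and 5.68 ± 1.19 TPM in Mock sgRNA, and Fads1, a desaturase of polyunsaturated fatty acids, averaged 4.92 ± 0.968 and 3.48 ± 0.411 TPM (SD, n = 3 each). Their log2 changes of 0.43 and 0.39 did not pass (limma adjusted p = 0.116 and 0.130). Elovl6 passed under 6 of 19 alternatives, among them median-of-ratios scaling (0.0488) and a replicate block (0.0446), and Fads1 under 2 of 18, quantile normalization (0.0113) and array weights (0.0487). Acly, Acaca and Fasn, which lead from citrate to the carbon chain, gave no call with the settings used. Fasn passed under some alternatives, as given above.

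The members were set beside 6 further lists of lipid genes. Of all tested protein-coding genes, 28.1% were called higher and 19.3% lower, the shares to hold beside each count. Among genes that supply acetyl-CoA or elongate chains, 9 of 16 tested were higher and 3 lower (median log2 change 0.72). Slc25a1, the mitochondrial citrate carrier upstream of Acly, averaged 44.7 ± 6.64 TPM in SLC43A2 sgRNA and 20.1 ± 7.87 TPM in Mock sgRNA, and Hacd3, a dehydratase of chain elongation, 50.0 ± 13.5 and 19.7 ± 3.13 TPM. Acss2 and Acss1, which make acetyl-CoA from acetate, were lower, Acss2 at 5.03 ± 0.732 TPM in SLC43A2 sgRNA and 11.1 ± 0.950 TPM in Mock sgRNA, and Acss1 at 2.11 ± 0.653 and 7.16 ± 1.14 TPM. Among acyl-CoA and glycerolipid genes 9 of 17 were higher and 3 lower (median 0.79). Those called higher include Gpat3, named after its values were seen, which averaged 4.21 TPM in SLC43A2 sgRNA and 0.91 TPM in Mock sgRNA. It passed the filter only through the SLC43A2 sgRNA libraries, where it is high. Gpat4, a glycerol phosphate acyltransferase, averaged 18.6 ± 5.21 TPM in SLC43A2 sgRNA and 5.74 ± 1.22 TPM in Mock sgRNA, and Dgat1, which makes triglyceride, 59.9 ± 7.79 and 20.8 ± 4.22 TPM. Lpin2, of the same pathway, was lower (log2 change -0.73). Mogat1 had 0, 0 and 0.430 TPM in SLC43A2 sgRNA, against 2.67, 4.32 and 3.48 TPM in Mock sgRNA, and was called lower after passing the filter through the Mock sgRNA libraries alone. All SDs here are over 3 libraries a group. The call of Slc25a1 was lost without SLC43A2 sgRNA replicate 1 or 3 (limma adjusted p = 0.0580 and 0.0584), and that of Lpin2 without SLC43A2 sgRNA replicate 2 or 3 (0.0605 and 0.0787) or Mock sgRNA replicate 1 or 3 (0.0711 and 0.0724), or with no filter on low values (0.0557).

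The prenyl and dolichol branch, which leaves the sterol route at farnesyl diphosphate, had 5 of 13 tested genes higher and 0 lower by limma (median log2 change 0.34), with 0 lower at an unadjusted p under 0.05 also. Fnta, a subunit of protein prenyltransferases, averaged 87.9 ± 4.28 TPM in SLC43A2 sgRNA and 35.1 ± 9.84 TPM in Mock sgRNA, and Coq2, of ubiquinone synthesis, 68.4 ± 11.4 and 33.0 ± 4.92 TPM (SD, n = 3 each). Genes that process SREBP or degrade sterol pathway proteins gave 4 of 13 higher and 2 lower (median 0.59). Over so few genes, neither this count nor that of the prenyl branch can be set apart from the 28.1% of protein-coding genes called higher. Mbtps1, the protease that first cuts SREBP, was lower at 11.6 ± 0.633 TPM in SLC43A2 sgRNA, against 19.5 ± 1.61 TPM in Mock sgRNA (log2 change -0.70, or -0.44 with length and GC trends removed), as was Rnf145, a ubiquitin ligase of the pathway (log2 change -0.99). Vcp and Nploc4, of the complex that extracts proteins for degradation, were higher (log2 changes 1.07 and 0.91). Vcp lost its call without SLC43A2 sgRNA replicate 1 or 3 (limma adjusted p = 0.0562 and 0.0558), and Nploc4 lost it when any of 5 libraries was left out, SLC43A2 sgRNA replicate 1 or 3 (0.122 and 0.127) and Mock sgRNA replicate 1, 2 or 3 (0.0573, 0.110 and 0.0710). Nploc4 also lost it with no filter on low values (0.0902) or receptor, mitochondrial and hemoglobin genes removed (0.0602).

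Sterol uptake, esterification and efflux genes were called in both directions, 6 of 17 higher and 5 lower (median log2 change 0.29). Of protein-coding genes, 28.1% were called higher and 19.3% lower, and so few genes cannot be set apart from these shares. Those called lower include Cyp27a1, named after its values were seen, which averaged 0.133 TPM in SLC43A2 sgRNA and 2.34 TPM in Mock sgRNA. It passed the filter through the Mock sgRNA libraries alone. Scarb1, a lipoprotein receptor, had 24.1, 13.0 and 24.1 TPM in SLC43A2 sgRNA, against 8.84, 3.94 and 10.8 TPM in Mock sgRNA (log2 change 1.32). Its groups were apart, and the call was lost without SLC43A2 sgRNA replicate 1 or 3 (limma adjusted p = 0.0863 and 0.0852) or Mock sgRNA replicate 1 or 2 (0.0530 and 0.0523), or with no filter on low values (0.0697). Tmem97, a sterol-binding membrane protein, averaged 71.9 ± 1.55 TPM in SLC43A2 sgRNA and 29.8 ± 10.6 TPM in Mock sgRNA (SD, n = 3 each; log2 change 1.30). Both Abcg1 and Mylip are targets of the liver X receptors, which answer to oxysterols, and both were lower. Abcg1, a sterol efflux transporter, had 2.35, 1.86 and 2.24 TPM in SLC43A2 sgRNA, against 14.7, 9.09 and 14.8 TPM in Mock sgRNA (log2 change -2.11, SE 0.22). Mylip, a ubiquitin ligase for lipoprotein receptors, had 2.46, 1.56 and 2.09 TPM in SLC43A2 sgRNA, against 13.5, 9.62 and 9.82 TPM in Mock sgRNA (log2 change -1.98, SE 0.20). Neither overlapped. Other genes tied to the same receptors, named after their values were seen, went both ways. Of the receptor genes, Nr1h2 averaged 53.4 TPM in SLC43A2 sgRNA and 35.7 TPM in Mock sgRNA and was called higher (log2 change 0.58), and the far less abundant Nr1h3 averaged 0.960 and 2.40 TPM and was called lower, passing the filter through the Mock sgRNA libraries alone. The efflux transporter gene Abca1 averaged 0.230 and 1.47 TPM and was not tested, and the acyltransferase gene Lpcat3 averaged 49.5 and 26.9 TPM and was called higher. Macrophages are rich in Abca1, Abcg1 and Nr1h3, and their markers fell in the same libraries, as given above; the part of this was not tested.

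Of 18 fatty acid oxidation genes tested, which break down what the synthesis genes build, 13 were called higher and 1 lower (median log2 change 0.60). Acads, a short-chain acyl-CoA dehydrogenase, averaged 11.1 ± 3.52 TPM in SLC43A2 sgRNA and 3.71 ± 0.569 TPM in Mock sgRNA (SD, n = 3 each). Etfdh, which passes electrons to ubiquinone, averaged 47.7 ± 8.43 and 18.7 ± 4.34 TPM in these groups (SD, n = 3 each). Cpt1a, which admits long chains to mitochondria, was the gene called lower, at 6.86 ± 0.0866 TPM in SLC43A2 sgRNA and 11.6 ± 1.05 TPM in Mock sgRNA (log2 change -0.68). Set beside these 6 lists, the 18 sterol enzymes had a higher median change, 1.00, than any, and the fatty acid members stood at 0.39. By counts the sterol enzymes did not lead, with 12 of 18 called higher against 13 of 18 oxidation genes. The acetyl-CoA and elongation list (9 of 16) and the glycerolipid list (9 of 17, Gpat3 among them) stood near the tested members as a whole (17 of 31). A rise was thus not particular to the sterol enzymes. The lists were compared by counts and medians only, and no test of one list against another was made.

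**Figure D5:**
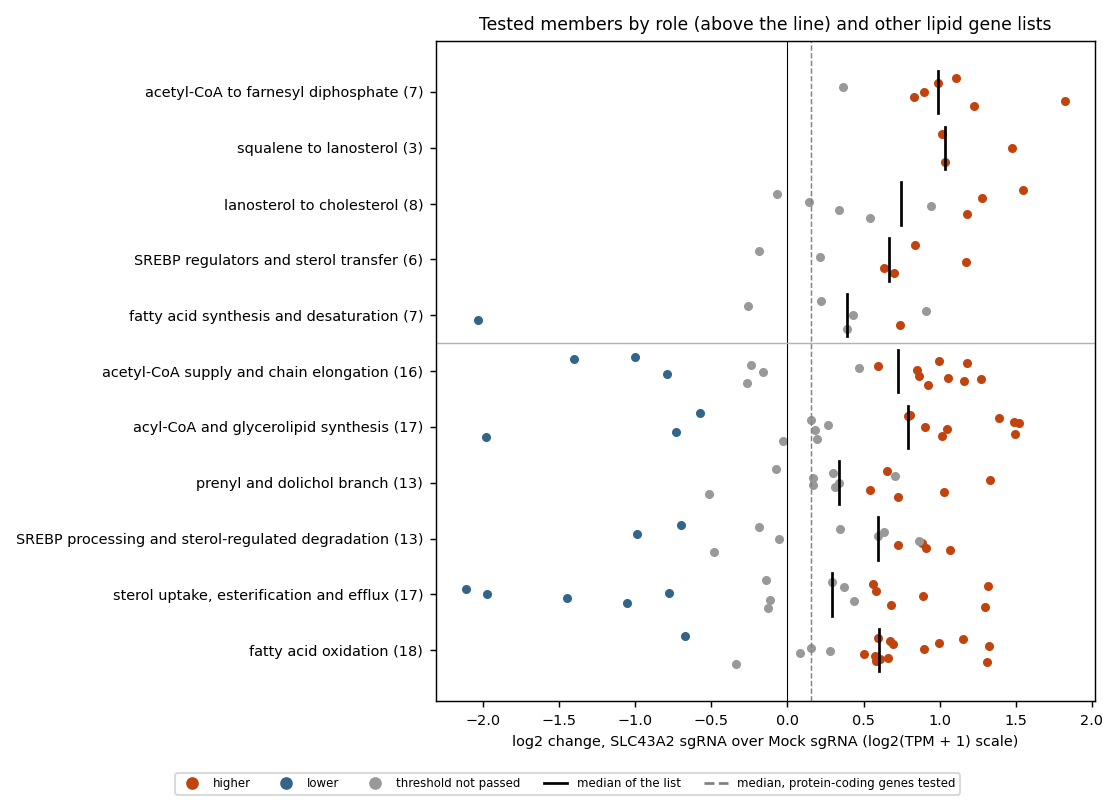
Log2 change (SLC43A2 sgRNA over Mock sgRNA) of each tested gene, by role of the members above the line and for 6 other lipid gene lists under it, with the number tested in parentheses. Black bars are medians, from 0.29 for sterol uptake, esterification and efflux to 1.03 for squalene to lanosterol, and the dashed line marks the median of protein-coding genes tested, 0.16.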

How the data were processed

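RNA-seq libraries were made from total RNA with the Illumina TruSeq kit, which does not mark strand, per the labels' protocols. The same text speaks of retinas, so it may not describe these lymphocytes. The authors deposited gene-level TPM in a single table, and TPM keeps no depth, so no counting interval or floor is given. Bowtie 0.12.2 is named in the submitters' processing notes with no role. The counting method is not given in the sources used here, and the build behind the table is uncertain.

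Groups and replicate numbers came from the sample titles. Differences were tested in R 4.3.3 with limma 3.58.1 on log2(TPM + 1), using lmFit, then a two-sided eBayes test that lets the variance follow the mean. This covered genes averaging at least 1 TPM over the 6 libraries, 13759 in all or 24.1% of the table, with Benjamini-Hochberg adjustment over all of them and a threshold of 0.05. This scale understates changes of low genes. The fit was also run on simulated data with noise drawn separately for each gene. That run cannot speak to shifts shared by many genes, such as those of cell makeup. The members, the 6 lipid lists and the 9 marker lists were chosen with earlier results of these data known. Named genes are all members, Slc43a2, and from each lipid list up to 2 rises and 2 falls of largest log2 change past the threshold. Coordinates and exon overlaps are from GENCODE M21 (GRCm38), which holds 90.7% of the table's identifiers. Similar transcripts were those matching over at least 100 bases at 95% identity or more. Promoters are RefSeq windows on GRCm38.p6. Alternatives changed the pseudocount, the filter, the scaling, the genes kept, the variance model or the libraries. Some genes of these pathways are not reported here.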

Additional observations from a re-analysis of the deposited data

How the results depend on the processing

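The number of members called higher, 17 with the settings used, was 14 with no filter on low values and 13 to 16 with any single library left out, and lay between 16 and 21 under the other 12 alternatives. The number called lower was 1 under every alternative except a mean of at least 5 TPM, where it was 0 because Scd1 is then not tested. The share of all tested genes called was 45.1%, and 20.4% with no filter on low values, which tests 29304 genes. Without 1 library it ranged from 30.9% to 42.9%. Higher genes made up 50.6% of all calls, 60.6% with a mean of at least 5 TPM and 60.3% with libraries scaled to their summed T cell markers, but 44.4% both with no filter and without receptor, mitochondrial and hemoglobin genes, and 44.6% without SLC43A2 sgRNA replicate 1. The median log2 change of all tested genes was 0.03, but 0.19 with a mean of at least 5 TPM, 0.13 with quantile normalization and 0.13 with T cell marker scaling, and -0.05 without receptor, mitochondrial and hemoglobin genes, -0.019 with no filter and -0.017 without SLC43A2 sgRNA replicate 1.

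Reversals of sign touched 3 members without a call. Tm7sf2 stood at 0.20 with quantile normalization, 0.035 with T cell marker scaling, and between -0.33 and 0.23 with a single library left out, the highest being without Mock sgRNA replicate 1. Nsdhl stood at -0.045 with trends of transcript length and GC removed. Acaca stood at 0.10 with quantile normalization and 0.14 with those trends removed. The causes were not tested. Removing these trends and fitting protein-coding genes alone were chosen after seeing the data. The labels give both groups the same replicate numbers but no shared origin, and same-numbered libraries deviated together with correlations of 0.00106, 0.0606 and -0.0313, so they were not treated as pairs. With a replicate block, 19 members were called higher and 1 lower, and 46.2% of all tested genes were called. TPM gives no depth, so what depth limits is unknown.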
